A study of Arabidopsis thaliana with 90 samples.

Results

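Red light (R) for 1 h was given at 27 °C to Arabidopsis seedlings of the line PHYB-CFP, PHYD-YFP/abcde, and their transcripts were set against those of seedlings of the same line and temperature kept in darkness. The members are 6 RNA-seq libraries of the 90 in the series, 3 irradiated and 3 dark, chosen by line, temperature and light treatment alone. The seedlings were 4 days old and etiolated, and R was applied at 50 µmol m−2 s−1. The line with both transgenes, PHYB-CFP/abcde and PHYD-YFP/abcde all lack endogenous phytochrome function through the alleles phyA-201, phyB-1, phyC-1, phyD-1 and phyE-1 (abcde) in the Ler background. The study describes PHYB-CFP under the PHYB promoter and PHYD-YFP under the constitutive 35S promoter. For the line with both transgenes, neither the promoters nor how it was made is given in the sources used here. It was compared with PHYB-CFP/abcde and with PHYD-YFP/abcde at 27 °C, with its own response at 17 °C, and with its own seedlings after 24 h R at 27 °C, with 3 libraries per group. PHYD-YFP/abcde is a single line, selected for its high expression. aBcde, where phyB is the only functional phytochrome, and PHYD-YFP/abCde, where phyC is also intact, are given side by side in a few places.

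Phytochromes are photoreceptors that R converts to an active form, which moves to the nucleus and binds the PHYTOCHROME INTERACTING FACTORS (PIFs), basic helix-loop-helix (bHLH) factors that drive growth in darkness and shade. Active phytochrome removes or blocks PIFs and restrains the COP1-SPA ubiquitin ligase, so that PIF-driven genes fall and HY5-driven genes rise. phyB is the main R receptor of seedlings, its active form reverts faster in warmth, and phyD is its closest relative.

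The 6 libraries held 18401347 to 19298817 counts after 1 h R and 15613637 to 18850660 in darkness, so that 5 counts stand for 0.275 to 0.346 CPM, the unit used here for counts scaled by library size. On log2 CPM the 2 groups were apart: the distance between libraries was 78.3 to 84.4 within groups and 102 to 110 between them. Root markers summed to 32.8 to 42.7 CPM after 1 h R and 32.4 to 43.9 CPM in darkness, and the root-hair gene COBL9 was at 0 to 0.116 CPM after 1 h R and 0 to 0.174 CPM in darkness. Seed storage markers summed to 199 to 501 CPM after 1 h R and 246 to 834 CPM in darkness. The protochlorophyllide reductase gene PORA, a marker of etiolated tissue, was at 35.4 to 70.6 CPM after 1 h R and 37.6 to 59.4 CPM in darkness. In darkness at 17 °C the same line had 2138 to 2684 CPM of PORA. The labels do not say whether replicates were separate cultures, so that the spread between replicate libraries may be technical. The p-values rest on that spread, estimated over all 90 libraries in 30 groups rather than from these 6 alone. In whole seedlings, fewer cells of a type and less RNA per cell cannot be told apart.

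The transgenes were checked first. PHYD had 12139, 12708 and 10276 CPM after 1 h R, against 11511, 11576 and 10372 CPM in darkness. PHYB had 769, 771 and 632 CPM after 1 h R, against 1552, 1637 and 1534 CPM in darkness. Thus the groups overlapped for PHYD and stood apart for PHYB, which fell by 1.12 ± 0.11 (SE) on the log2 scale (edgeR quasi-likelihood test, Benjamini-Hochberg adjusted p = 8.9e-13). The reads do not separate transgene from mutant endogenous transcripts, but PHYB was at 80.0 to 100 CPM after 1 h R and 106 to 120 CPM in darkness in PHYD-YFP/abcde, which has no PHYB-CFP. PHYA, the receptor of far-red light, was at 665, 610 and 658 CPM after 1 h R, against 1136, 1197 and 1214 CPM in darkness, and its log2 fold change of -0.87 ± 0.14 (adjusted p = 2.0e-06, edgeR) stayed under the 2-fold threshold. PHYC and PHYE had log2 fold changes of -0.04 ± 0.11 and -0.04 ± 0.14 (adjusted p = 0.91 and 0.94, edgeR).

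G-boxes (CACGTG) and PBE-boxes (CACATG, or CATGTG on the other strand) are the motifs that PIFs bind. The first 4 stretches below come from genes that fell, PHYB and 3 of the fallen genes with the smallest p described next, and were chosen as examples after the matches were seen. The other 3, chosen in the same way, come from heat-shock genes that rose and carry a heat-shock element, here the units GAA, TTC and GAA, or on the other strand TTC, GAA and TTC, with any 2 bases between units. They were read from the RefSeq TAIR10.1 genome, 5′ to 3′ on the strand of the gene, with the motif in capitals. This is a reference genome, and the sequence of the Ler plants may differ. The PHYB stretch is chr2:8139576-8139675 on the plus strand, and its G-boxes begin 146 and 111 bases before the annotated start. That of GAI is chr1:5148052-5148111 (plus strand), with a G-box 911 and a PBE-box 897 bases before the start. That of AT5G05965 is chr5:1792676-1792772 (minus strand), with G-boxes 118, 78 and 67 bases before it, and that of AT5G02580 is chr5:579224-579363 (plus strand), with G-boxes 498 and 396 bases before it. HSFA2, chosen after its values were seen, has its element 88 bases before the start (chr2:11135513-11135572, plus strand), while those of HSP70-4 (chr3:3993844-3993873, minus strand) and ATHSP22.0 (chr4:6370379-6370408, plus strand) lie just inside the annotated transcript, from its base 21 and 50.
PHYB: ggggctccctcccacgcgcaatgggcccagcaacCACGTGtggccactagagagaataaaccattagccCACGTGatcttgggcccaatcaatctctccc
GAI: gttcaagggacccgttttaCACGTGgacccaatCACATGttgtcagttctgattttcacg
AT5G05965: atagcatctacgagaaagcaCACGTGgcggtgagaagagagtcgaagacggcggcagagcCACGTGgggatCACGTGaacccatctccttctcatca
AT5G02580: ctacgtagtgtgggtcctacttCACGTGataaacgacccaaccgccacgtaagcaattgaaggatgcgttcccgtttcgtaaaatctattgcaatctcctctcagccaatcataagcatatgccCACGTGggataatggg
HSFA2: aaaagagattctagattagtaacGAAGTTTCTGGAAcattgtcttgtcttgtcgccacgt
HSP70-4: tactcgtGAACGTTCTCGAAagctctttgc
ATHSP22.0: aaagatatTTCAAGAAACTTCttcattctt

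Across the 20695 genes tested, 596 rose and 154 fell after 1 h R (adjusted p under 0.05 and at least 2-fold), which is 2.88% and 0.744% of the genes. Of these differentially expressed genes (DEGs), 590 and 149 had 3 irradiated and 3 dark libraries that did not overlap, and 30.9% of all genes tested did not overlap. The change was at least 8-fold in 77 of the genes that rose and 11 of those that fell. The median log2 fold change over all genes was -0.002. The genes with the smallest p included light-signaling, growth, plastid and detoxification genes, given by group in what follows.

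**Figure D1:**
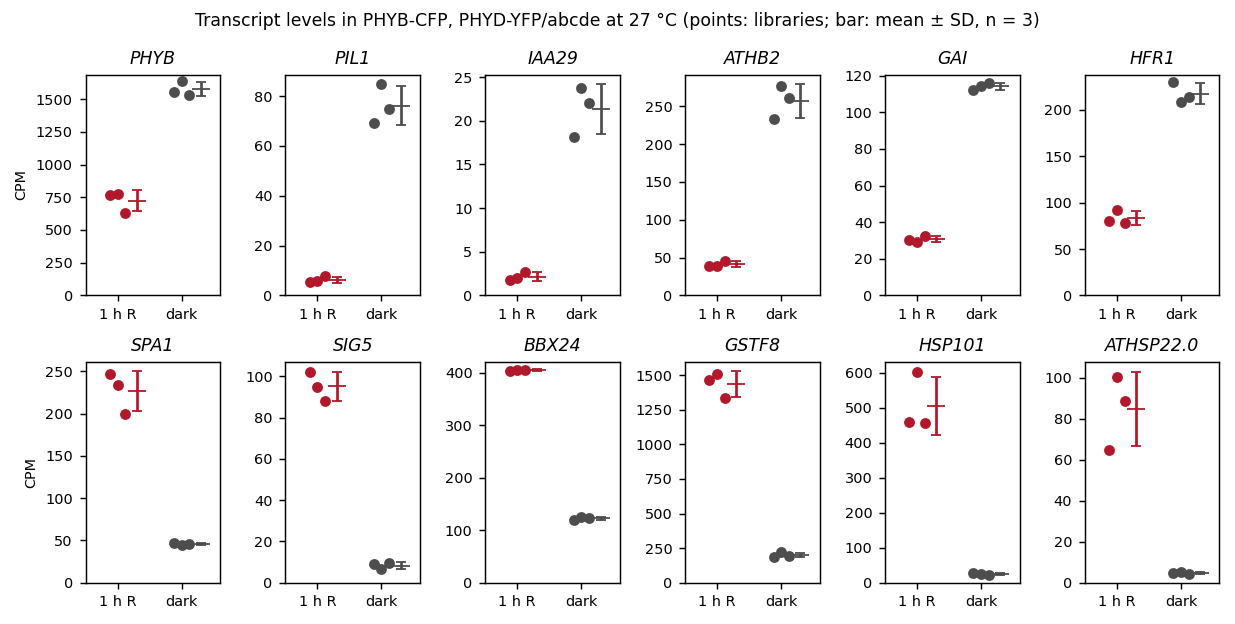
Transcript levels in CPM of 12 genes in the 3 libraries after 1 h R (red, left) and the 3 dark libraries (gray, right) of PHYB-CFP, PHYD-YFP/abcde at 27 °C, with mean ± SD. In all 12 panels the groups do not overlap: the 6 genes of the upper row are lower and the 6 of the lower row higher after 1 h R, with HSP101 at 456 to 603 CPM against 22.01 to 27.2 CPM.

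Of the 11 PIF and related bHLH genes tested, 4 fell and 2 rose. PIL1, a bHLH gene used as an early marker of shade, had 5.38, 5.87 and 7.71 CPM after 1 h R, against 69.2, 84.6 and 74.6 CPM in darkness. It fell by 3.59 ± 0.26 (SE) on the log2 scale (adjusted p = 6.3e-18, edgeR), and its highest irradiated library was far below its lowest dark one. IAA29, an auxin-inducible AUX/IAA gene, had 1.77, 2.03 and 2.698 CPM after 1 h R, against 18.2, 23.8 and 22.01 CPM in darkness (log2 fold change -3.29 ± 0.24, adjusted p = 9.4e-18, edgeR). HFR1, an atypical bHLH factor that holds PIFs back, was also lower after 1 h R, at 83.2 ± 7.54 CPM against 217 ± 11.3 CPM in darkness (SD, n = 3 each). PAR1 and PIF6 also fell, and PIF7 and PIF8 rose, at low levels of 1.68 ± 1.08 and 3.14 ± 1.01 CPM, against 0.289 ± 0.0549 and 0.587 ± 0.215 CPM in darkness. The call of PIF7 was lost without irradiated replicate 2 and without replicate 1 or 2 of every group.

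Of the HD-ZIP II factors of shade growth, 4 of 5 fell, and the median of the list was -2.37. ATHB2 had 38.9, 39.4 and 45.5 CPM after 1 h R, against 233, 277 and 261 CPM in darkness (log2 fold change -2.64 ± 0.21, adjusted p = 2.9e-16, edgeR). ATHB4, HAT3 and HAT2 fell by 3.86, 2.37 and 1.23, and HAT1 had -0.90. In the auxin list 5 of 30 fell and none rose (median -0.61): IAA29 and the small auxin-up genes SAUR22, SAUR50, SAUR23 and SAUR24, all 4 under 25 CPM. The adjusted p of SAUR23 and SAUR24 was 0.033 and 0.029 (edgeR), and their calls were lost without any one of several libraries, among them irradiated replicate 3. That of SAUR50 was lost without irradiated replicate 3 and that of SAUR22 without replicate 2 of every group. Of 18 other growth genes, 5 fell and none rose: XTH15, a xyloglucan-modifying enzyme of the wall, ST2A and ST2B, sulfotransferases of jasmonate metabolism, CKX5, which degrades cytokinin, and ACS5, of ethylene synthesis, which lost its call without replicate 1 of every group. XTH15 was the most abundant of these by CPM, at 577, 598 and 654 CPM after 1 h R, against 2858, 2976 and 2934 CPM in darkness.

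GAI, a DELLA repressor of gibberellin responses, had the smallest p of the genes that fell. It had 30.5, 29.4 and 32.7 CPM after 1 h R, against 112, 114 and 116 CPM in darkness (log2 fold change -1.89 ± 0.12, adjusted p = 2.3e-20, edgeR). The libraries of each group were close together and the groups far apart. The other genes among the 12 with the smallest p that fell were AT5G02580 (-2.76), AT5G05965 (-2.78), RTFL21 (-2.48), the zinc finger gene AT5G44260 (-2.17), AT3G07350 (-1.82), AT4G28240 (-1.63) and the myb-like gene AT1G68670 (-1.01), besides PIL1, IAA29, ST2A and ATHB2. AT1G68670 lay at the 2-fold threshold and lost its call without replicate 2 of either group, among genes with a mean count of at least 50, and by limma. AT5G05965 and AT4G28240 overlap a neighboring gene in the annotation, and their counts are less certain. The same holds, among genes named elsewhere, for PHYE, GSTF8, BBX24, GPX6, PIF6, PIF7, CKX5, XTH15, SPA3, RVE1, LNK1 and LNK3. It also holds for GUN4, CAO, CHS, LHCB3, PSY, TCH3, WRKY33, WRKY40, HSP101, NFXL1, PKS1 and CYP81D11.

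Of 28 light-signaling genes tested, 11 rose and 2 fell, with a median of 0.48. SPA1, a partner of COP1, had the smallest p of all genes, with 247, 234 and 200 CPM after 1 h R, against 47.1, 45.0 and 45.8 CPM in darkness (log2 fold change 2.30 ± 0.14, adjusted p = 9.0e-21, edgeR). BBX24, a B-box factor, had 403, 406 and 405 CPM after 1 h R, against 120, 125 and 123 CPM in darkness (1.72 ± 0.12, adjusted p = 1.6e-18, edgeR). The libraries of each group differed little and the groups were far apart. HY5, a bZIP factor that drives light-induced genes, had 141, 135 and 137 CPM after 1 h R, against 52.9, 56.1 and 63.1 CPM in darkness (1.26 ± 0.22). Besides SPA1 and HY5, those that rose were SPA3, HYH, RUP2, RPT2 and 5 B-box genes, and those that fell were BBX23 and FHL. The call of BBX23 was lost without replicate 1 or 2 of every group, that of FHL without replicate 2, that of HYH without replicate 1, and that of BBX30 without any one replicate number or dark replicate 3. BBX30 and BBX31 had no count in any dark library, and against a floor of 3 counts per dark library they were at least 3.74-fold and 8.60-fold higher after 1 h R. TZP, another light-signaling gene, rose by 1.69 ± 0.12 (adjusted p = 5.5e-18, edgeR).

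In the clock list 11 of 27 rose, none fell, and the median was 0.43. PRR9, a pseudo-response regulator, had 42.2, 35.9 and 38.5 CPM after 1 h R, against 5.94, 6.68 and 5.34 CPM in darkness, a 6.49-fold rise (adjusted p = 1.4e-09, edgeR). The morning genes CCA1 and LHY rose by 1.61 and 1.91 on the log2 scale, and ELF4, of the evening complex, was at 34.9 ± 2.54 CPM after 1 h R and 8.17 ± 0.344 CPM in darkness (SD, n = 3 each). RVE1, RVE8, PRR5, LNK1, LNK3, CDF1 and CDF3 also rose, by 1.24 to 1.67, and CDF1 lost its call without replicate 2 of every group. TOC1, ELF3, PRR7 and LUX had log2 fold changes of 0.17, 0.26, 0.06 and -0.10.

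Of 32 plastid genes, 13 rose and none fell (median 0.75). SIG5, a sigma factor that directs plastid transcription, had 102, 94.8 and 88.0 CPM after 1 h R, against 8.98, 6.44 and 9.41 CPM in darkness (3.52 ± 0.26, adjusted p = 6.3e-18, edgeR). ELIP1 and ELIP2, early light-inducible proteins of the thylakoid, had 22.3, 34.1 and 21.3 CPM and 17.0, 25.4 and 15.7 CPM after 1 h R, while no dark library exceeded 1.59 CPM. GLK2, a factor of chloroplast development, was at 218 ± 7.23 CPM after 1 h R and 67.6 ± 5.14 CPM in darkness (SD, n = 3 each). The chlorophyll genes CHLH, GUN4 and CAO rose by 1.53, 1.95 and 1.02, while the abundant RBCS1A had 1777, 1979 and 1992 CPM after 1 h R, against 1196, 1473 and 1301 CPM in darkness, and did not pass the test (0.53, adjusted p = 0.41, edgeR). Of 5 flavonoid genes tested, CHS and FLS1 rose, FLS1 at 2.44 ± 0.634 CPM only. The call of CAO was lost by limma and without replicate 1 of every group, irradiated replicate 1 or dark replicate 2. Those of CHS, PSY and SIG1 were lost without replicate 1 of every group, and that of FLS1 by limma, without any one replicate number and without 5 of the 6 libraries in turn. LHCB3 lost its call without replicate 1 or 2 of every group, and LHCB1.1 also by limma and without irradiated replicate 2, dark replicate 1 or dark replicate 2.

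**Figure D2:**
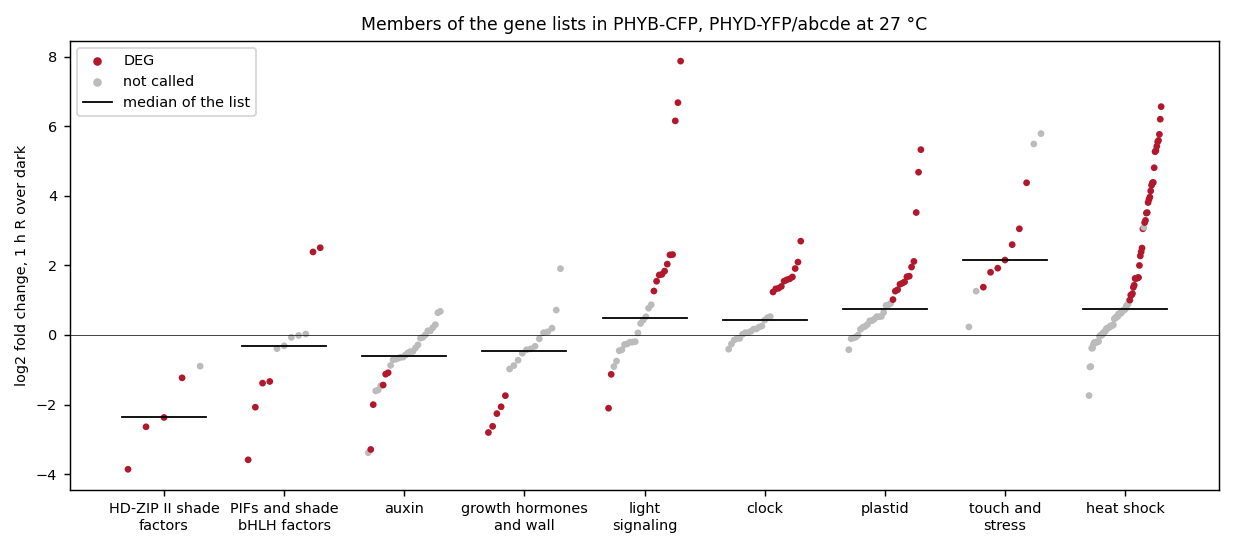
Log2 fold change after 1 h R over darkness (y axis) of each member of 9 gene lists in PHYB-CFP, PHYD-YFP/abcde at 27 °C, with DEGs in red, other members in gray and the median of the list as a line. The medians run from -2.37 for the HD-ZIP II factors to 2.15 for touch and stress genes, and 36 of 84 heat-shock genes are DEGs, all of them higher.

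A list of heat-shock proteins and factors was built from product names after the values were seen: of 84 tested, 36 rose, none fell, and the median was 0.74. HSP101, a chaperone that dissolves protein aggregates, had 458, 603 and 456 CPM after 1 h R, against 27.2, 23.9 and 22.01 CPM in darkness (4.38 ± 0.58, adjusted p = 1.3e-08, edgeR). HSP70-4, a cytosolic HSP70, had 1854, 2235 and 1726 CPM after 1 h R, against 244, 234 and 222 CPM in darkness (3.05 ± 0.34, adjusted p = 9.2e-11, edgeR). Irradiated replicate 2 was the highest for both genes, and all 3 irradiated libraries were far above darkness. The members of the list with the largest fold changes were small heat-shock proteins, such as HSP23.6-MITO (6.56 ± 0.91) and AT1G54050 (6.20 ± 0.64), and HSFA2, a factor that drives heat-shock genes, had 95.5, 113 and 95.8 CPM after 1 h R, against 4.63, 5.05 and 4.88 CPM in darkness. These 3 were named after their values were seen. Without any one of the 6 libraries, 32 to 36 members rose.

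Detoxification genes were among those with the smallest p. GSTF8, a glutathione transferase, had 1466, 1511 and 1332 CPM after 1 h R, against 189, 220 and 192 CPM in darkness (2.84 ± 0.18, adjusted p = 2.3e-20, edgeR). GSTU19, of the same family, had 677, 722 and 598 CPM after 1 h R, against 104, 93.4 and 82.9 CPM in darkness. Of 50 glutathione transferases tested, also listed by product name afterwards, 8 rose, none fell, and the median was 0.48, while of 115 DnaJ co-chaperones 8 rose, 1 fell, and the median was -0.01. The monooxygenase MO1, the glutathione peroxidase GPX6, the cytosolic glyceraldehyde-3-phosphate dehydrogenase GAPC1, the HSP90 gene HSP81-2, the nudix hydrolase NUDX19 and the co-chaperone SGT1A completed the 12 genes with the smallest p that rose, by 1.54 to 1.99. In the touch and stress list 7 of 11 rose (TCH3, ZAT12, ZAT10, WRKY33, WRKY40, HSP101 and HSP70-4), with a median of 2.15, and TCH3 lost its call without replicate 2 of every group. ZAT12, a zinc finger gene of oxidative stress, had 106, 140 and 126 CPM after 1 h R, against 21.4, 21.4 and 18.6 CPM in darkness. HSP70, HSP90 and HSP20 genes are close paralogs, so that reads of near-identical members are less certain.

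The joint targets of phyB and phyD are genes that the study found bound in ChIP-seq of other lines, and the lists of PIF targets are those it used. Of 81 joint targets tested, 18 fell and 1 rose, with a median of -0.19. Of 323 direct PIF targets, 44 fell and 17 rose (median -0.05), and of 77 light-responsive direct PIF targets, 24 fell and 11 rose. Over all genes tested, 0.744% fell and 2.88% rose. At 27 °C, 20 joint targets fell after 1 h R in PHYB-CFP/abcde, 17 in aBcde, 8 in PHYD-YFP/abCde and 2 in PHYD-YFP/abcde.

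Motifs were counted in the 250 bases before the annotated start. A G-box or PBE-box was present for 23 of the 101 named genes (22.8%), against 17.6% of the genes tested. The share was 21.2% of the named genes that fell and 25.4% of those that rose, and 31.4% of all DEGs that fell and 22.3% of all that rose. Over 1000 bases a G-box was found for 34.6% of the DEGs that fell and 19.9% of those that rose, against 16.1% of the genes tested, and a PBE-box for 51.0%, 38.8% and 38.3%. PIL1, IAA29 and ATHB2 had neither box within 250 bases, which does not speak to boxes further upstream. The heat-shock element was found within the first 200 bases of 6 of the 36 heat-shock genes that rose, against 0.661% of the genes tested, and within 1000 bases before the start for 4 of 36, against 1.76%. A match describes the reference sequence only.

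The response was next set against that of PHYB-CFP/abcde at 27 °C, a line without PHYD-YFP. These are separate lines, so that PHYD-YFP cannot be told apart from other differences between them. In PHYB-CFP/abcde, PHYB had 491, 470 and 415 CPM after 1 h R, against 1367, 1322 and 1423 CPM in darkness. The responses differed for 65 genes that were higher (0.314% of the genes tested) and 2 that were lower (0.00966%) in the line with both transgenes. All 65 were DEGs that rose in the line with both transgenes, an overlap partly built in because the same libraries enter both tests. The 65 included 16 heat-shock proteins and factors. None of the lists of bHLH, HD-ZIP II, auxin, light-signaling, clock or plastid genes had a member called. ATHSP22.0, a small heat-shock protein, had 64.9, 100 and 88.5 CPM after 1 h R, against 4.91, 5.29 and 4.18 CPM in darkness, in the line with both transgenes. In PHYB-CFP/abcde it had 7.74, 8.79 and 5.93 CPM after 1 h R, against 5.41, 7.68 and 6.65 CPM in darkness. The irradiated seedlings of the line with both transgenes stood apart from the other 9 libraries, with a difference between the responses of 3.95 ± 0.55 (adjusted p = 3.7e-06, edgeR).

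AT1G59860, another small heat-shock protein, differed by 3.97 ± 0.56, GSTF8 by 1.78 ± 0.24 and NFXL1, a zinc finger gene, by 1.25 ± 0.16 (adjusted p = 3.7e-06, 2.8e-06 and 2.4e-06, edgeR). GSTF8 rose in both lines, to 468 ± 28.4 CPM after 1 h R, against 224 ± 22.2 CPM in darkness (SD, n = 3 each), in PHYB-CFP/abcde. The genes with a smaller response, AT3G42800 (-1.73) and AT4G21820 (-2.30), were under 5 CPM in all 6 libraries of the line with both transgenes. The light-regulated genes PIL1, SPA1 and SIG5 differed by 0.94 ± 0.35, -0.19 ± 0.19 and 0.02 ± 0.34 and did not pass the test (adjusted p = 0.58, 1 and 1, edgeR), which does not show that the responses were equal. PHYB itself differed by 0.46 ± 0.15 (adjusted p = 0.37, edgeR).

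The count of genes in this comparison depended on the libraries. Without replicate 2 of every group it fell to 12 and without replicate 3 to 41, all higher in the line with both transgenes. Dark replicate 1 of PHYB-CFP/abcde held 171 CPM of PHYD, against 21.1 and 20.1 CPM in the other 2, and without it 51 genes were called as higher and none as lower. Irradiated replicate 3 of PHYB-CFP/abcde had less organelle RNA than the other 2 (1.00% against 2.66% and 3.08%) and less SIG5 (40.1 CPM against 97.2 and 82.3 CPM), and without it 59 genes were called, all higher. Their part in the other results was not tested. The 16 heat-shock genes became 8 without dark replicate 1, 9 without irradiated replicate 2 and 9 without dark replicate 3 of the line with both transgenes. They became 4 without replicate 2 and 8 without replicate 3 of every group, and 25 where only the groups compared were fitted.

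**Figure D3:**
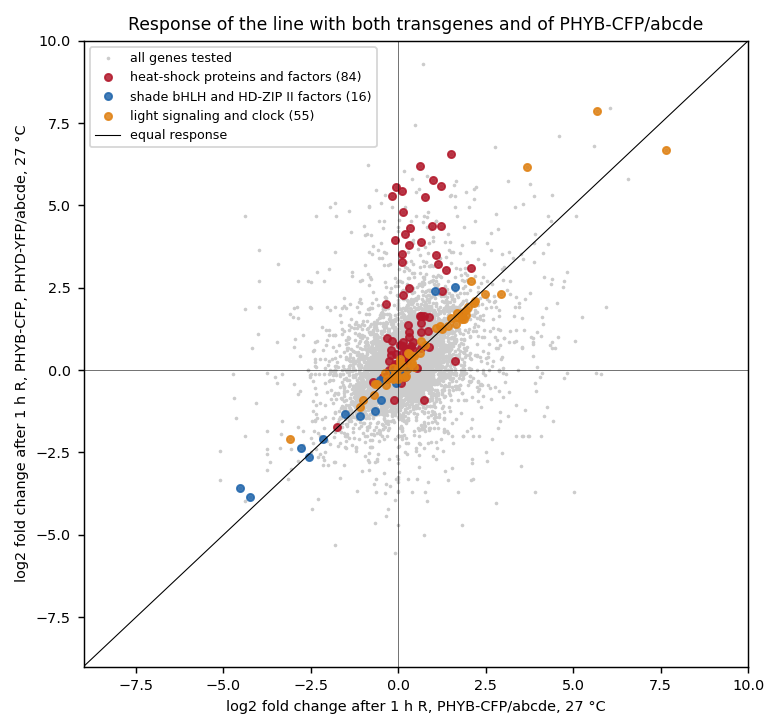
Log2 fold change after 1 h R over darkness at 27 °C in PHYB-CFP, PHYD-YFP/abcde (y axis) and in PHYB-CFP/abcde (x axis) of all 20695 genes tested (gray) and of 3 groups of genes, with a line for equal responses. Most light-signaling, clock and shade genes lie near the line and many heat-shock genes above it, with ATHSP22.0 at 4.14 against 0.19.

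PHYD-YFP/abcde, which lacks PHYB-CFP, is also a separate line, so that other differences cannot be told apart from PHYB-CFP. Against its response at 27 °C, 181 genes had a higher response (0.875% of the genes tested) and 71 a lower one (0.343%). Of these, 160 and 53 were DEGs that rose and fell in the line with both transgenes, whose libraries enter both tests. SPA1 had 46.3, 50.4 and 48.1 CPM after 1 h R, against 36.6, 29.9 and 44.3 CPM in darkness, in PHYD-YFP/abcde, where its groups did not overlap but differed little. Its response was higher by 1.92 ± 0.19 in the line with both transgenes (adjusted p = 1.8e-10, edgeR). TZP, SIG5 and BBX24 were higher by 1.68 ± 0.17, 2.98 ± 0.36 and 1.47 ± 0.17, and PIL1, AT5G05965, AT5G44260 and GAI had differences of -2.68 ± 0.34, -2.36 ± 0.32, -1.66 ± 0.22 and -1.34 ± 0.17.

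In the lists, 10 of 27 clock genes and 7 of 28 light-signaling genes had a higher response, 5 of 18 growth genes and 3 of 5 HD-ZIP II genes a lower one. PIL1 had 38.3, 46.0 and 42.5 CPM after 1 h R, against 74.1, 77.9 and 86.2 CPM in darkness, in PHYD-YFP/abcde. Of the heat-shock list, 16 genes were higher here too, and HSP101 had 70.6, 56.3 and 81.7 CPM after 1 h R, against 25.8, 26.3 and 29.7 CPM in darkness, in PHYD-YFP/abcde (difference 3.03 ± 0.74, adjusted p = 0.010, edgeR). Seed storage markers were higher throughout in PHYD-YFP/abcde, where they summed to 1072 to 4697 CPM after 1 h R and 1757 to 3234 CPM in darkness, and their part in this comparison was not tested. The count of 252 genes fell to 166 without replicate 1 and to 92 without replicate 2 of every group, and the 16 heat-shock genes became 5 without replicate 2 and 27 where only the groups compared were fitted.

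At 17 °C the same line responded less, with 69 DEGs that rose and 52 that fell. The response at 27 °C was higher than that at 17 °C for 183 genes (0.884% of the genes tested) and lower for 27 (0.13%). Of the 183, 166 were DEGs that rose at 27 °C, an overlap partly built in because the same libraries enter both tests. Heat-shock genes made up 28 of the 183. HSP101 had 11.5, 10.3 and 11.01 CPM after 1 h R, against 10.2, 8.27 and 11.1 CPM in darkness, at 17 °C, and HSP70-4 had 10.7, 10.1 and 10.6 CPM after 1 h R, against 20.5, 11.3 and 11.5 CPM in darkness. At 17 °C the groups overlapped for HSP101, HSP70-4 was not higher after R, and both genes had lower dark levels than at 27 °C. The dark groups also differed in tissue markers. PORA averaged 48.4 CPM in darkness at 27 °C and 2352 CPM at 17 °C. LHCB1.1, LHCB1.3 and RBCS1A, markers of green cotyledons, summed to a mean of 1486 CPM at 27 °C and 9758 CPM at 17 °C. The part of these dark levels in this comparison was not tested. GSTF8 differed between the temperatures by 2.65 ± 0.24, GPX6 by 1.80 ± 0.19, HSP81-2 by 1.67 ± 0.18 and GAPC1 by 1.43 ± 0.16 (adjusted p = 2.5e-12, 3.2e-10, 3.2e-10 and 1.2e-09, edgeR).

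GAI, AT1G49500 and BT2, a BTB and TAZ domain gene, had the lower responses with the smallest p, besides PKS1. GAI had 32.0, 32.9 and 28.4 CPM after 1 h R, against 56.7, 60.6 and 51.1 CPM in darkness, at 17 °C, so that the irradiated ranges at both temperatures overlapped while the dark level was lower at 17 °C. PKS1, a phytochrome-binding protein, had 32.5, 28.7 and 30.8 CPM after 1 h R, against 30.9, 37.1 and 36.9 CPM in darkness, at 27 °C, and 64.3, 69.7 and 67.7 CPM after 1 h R, against 35.6, 31.7 and 33.0 CPM in darkness, at 17 °C (difference -1.20 ± 0.21, adjusted p = 7.9e-05, edgeR). Its libraries overlapped at 27 °C and not at 17 °C. Among light-regulated genes, PIL1 (-0.71 ± 0.34), HY5 (0.12 ± 0.30), ELF4 (-0.08 ± 0.31) and GLK2 (-0.42 ± 0.27) did not pass the test between temperatures (adjusted p = 0.49, 0.97, 0.98 and 0.72, edgeR), whereas SIG5 (1.62 ± 0.36, adjusted p = 0.0043) and ATHB2 (-1.39 ± 0.28, adjusted p = 0.0010) did. In the lists, 4 of 32 plastid genes and 1 of 27 clock genes had a higher response at 27 °C. A lower one was called for 2 of 5 HD-ZIP II, 1 of 11 bHLH and 1 of 28 light-signaling genes. Of 18 growth genes, 1 was higher and 1 lower. Without replicate 2 of every group the count of 210 genes fell to 93 and that of 28 heat-shock genes to 17.

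**Figure D4:**
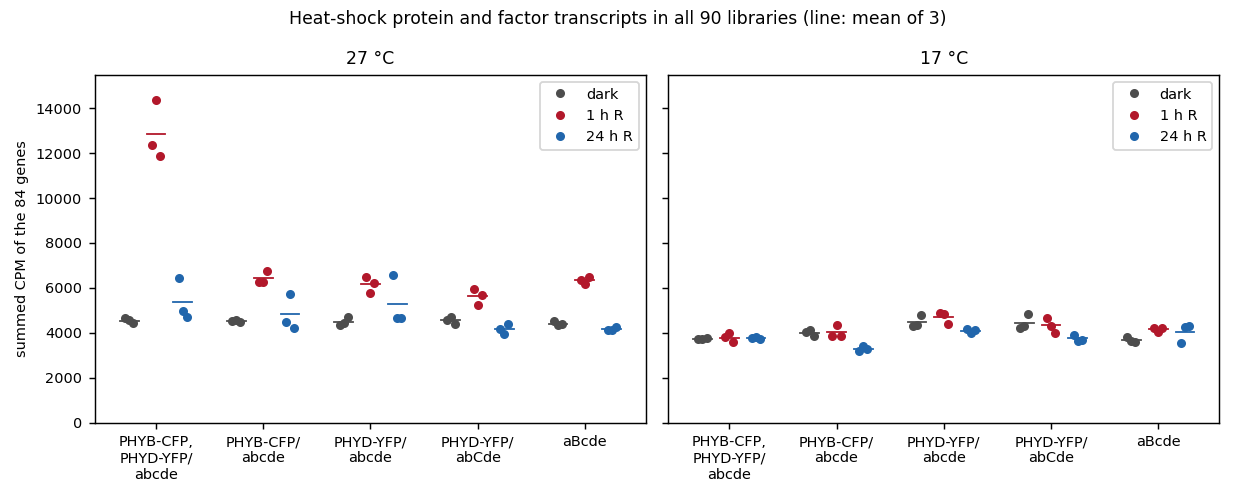
Summed CPM of 84 heat-shock protein and factor genes in each of the 90 libraries, by line and light treatment at 27 °C (left) and 17 °C (right), with the mean of 3 as a line. The list of genes was built after the values were seen. The 3 libraries of PHYB-CFP, PHYD-YFP/abcde after 1 h R at 27 °C lie at 11852 to 14381 CPM, above the other 87 libraries, which are all at or under 6764 CPM.

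The list of 84 heat-shock genes was built after the values were seen, so that a high sum here follows in part from that choice. The summed level of these genes was higher in the 3 irradiated libraries than in any other library of the series. It was 12355, 14381 and 11852 CPM after 1 h R, against 4649, 4561 and 4428 CPM in darkness. After 1 h R at 27 °C it averaged 6426 ± 293 CPM in PHYB-CFP/abcde, 6156 ± 360 CPM in PHYD-YFP/abcde, 5630 ± 346 CPM in PHYD-YFP/abCde and 6339 ± 164 CPM in aBcde (SD, n = 3 each), and their dark groups averaged 4409 to 4570 CPM. At 17 °C the line with both transgenes had 3799, 3973 and 3587 CPM after 1 h R, against 3741, 3719 and 3747 CPM in darkness. The 3 high libraries are all those of 1 group, so that anything else they share cannot be told apart from line, temperature and light.

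After 24 h R at 27 °C, 1388 genes were higher (6.71% of the genes tested) and 556 lower (2.69%) than after 1 h R. Of the heat-shock list, 32 of 84 were lower and 1 was higher, and of the plastid list 25 of 32 were higher and 3 lower. HSP101 averaged 24.4 ± 2.64 CPM in darkness and 458, 603 and 456 CPM after 1 h R and had 197, 17.0 and 15.4 CPM in the 3 libraries of 24 h R. The first of the 3 stood above the dark level and the other 2 below it, and GSTF8 and HSP70-4 were highest in the same library, at 346 CPM against 210 and 212 CPM and at 478 CPM against 205 and 193 CPM. A single library of 24 h R at 27 °C also stood apart in both sister lines, where HSP101 had 17.7, 190 and 25.8 CPM in PHYB-CFP/abcde and 204, 23.4 and 24.8 CPM in PHYD-YFP/abcde. In the same libraries glutathione transferases summed to 4381 CPM in the line with both transgenes, 3375 CPM in PHYB-CFP/abcde and 5414 CPM in PHYD-YFP/abcde, against 1686 to 1909 CPM in the other 2 libraries of each line. Without that library 1431 genes were higher and 566 lower, and 33 heat-shock genes were lower. LHCB1.1, of the light-harvesting antenna, averaged 2.69 ± 0.698 CPM in darkness and 7.63 ± 3.70 CPM after 1 h R and had 2568, 2195 and 2345 CPM after 24 h R.

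The genes with the smallest p that were higher after 24 h than after 1 h R were BT1, the aspartate kinase gene CARAB-AK-LYS, LHCB1.1 and the asparagine synthetase gene ASN2, by 3.72, 2.76, 8.28 and 5.73. BT1 had 98.2, 97.5 and 107 CPM in darkness, 36.7, 35.6 and 42.1 CPM after 1 h R and 461, 477 and 574 CPM after 24 h R. Its 1 h libraries were thus the lowest and its 24 h libraries the highest. Those that were lower after 24 h were GSTF8 (-2.49), NFXL1 (-1.59), CYP81D11 (-2.06) and AT5G02540 (-2.86). PIL1 fell further, to 1.67, 0.146 and 1.90 CPM after 24 h R (-2.28, adjusted p = 5.4e-08, edgeR), PHYB had 562, 585 and 620 CPM, and HY5 had 25.9, 25.02 and 20.7 CPM, under its dark level of 57.4 ± 5.21 CPM. GAI had 42.8, 52.2 and 49.2 CPM after 24 h R, between its levels in darkness and after 1 h R (0.64, adjusted p = 2.0e-05, edgeR, under the 2-fold threshold).

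**Figure D5:**
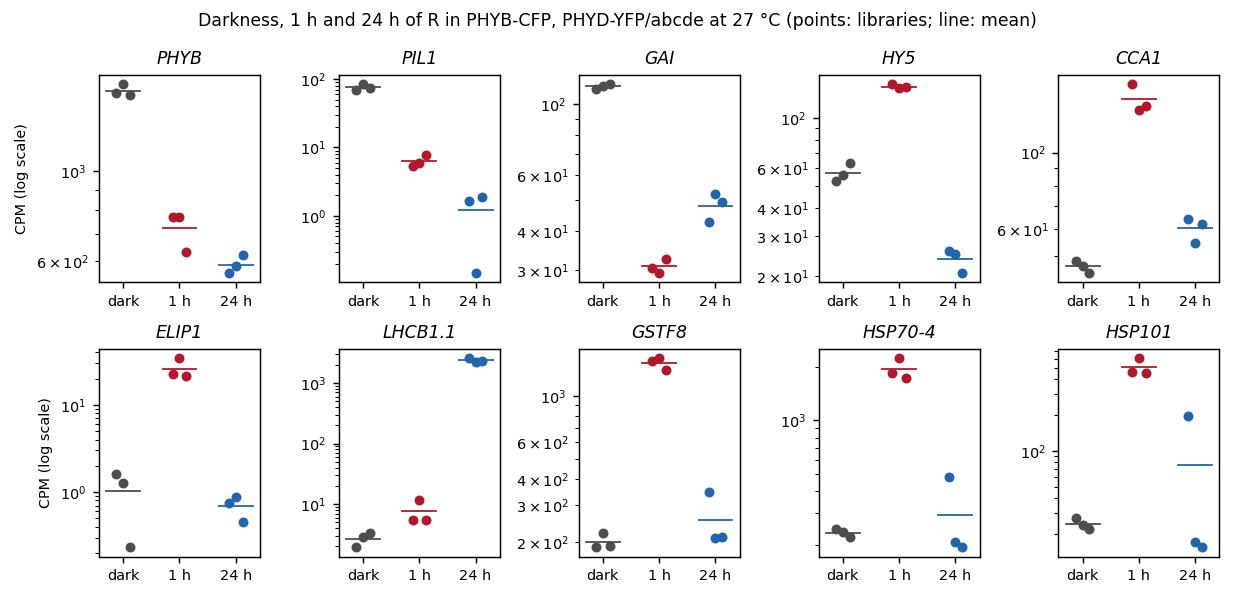
Transcript levels in CPM (log axis) of 10 genes in darkness, after 1 h R and after 24 h R in PHYB-CFP, PHYD-YFP/abcde at 27 °C, 3 libraries each, with the mean as a line. HSP101, HSP70-4, GSTF8 and ELIP1 are highest after 1 h R, LHCB1.1 is highest after 24 h R, and 1 library of 24 h R has 197 CPM of HSP101 against 17.0 and 15.4 CPM in the other 2.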

How the data were processed

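The authors enriched polyadenylated RNA, filtered the reads (FastQC and a trimmer), aligned them to TAIR10 by STAR and counted them on genes by HTSeq, and they deposited raw read counts per gene and library. The strand setting is not given in the sources used here, so that genes overlapping a neighbor are less certain. The 28775 genes listed were reduced by 279 organelle and 627 tRNA or rRNA genes, and a minimum of 5 counts in 25% or more of the 90 libraries then kept 20695. In R 4.3.3, edgeR 4.0.16 (TMM, glmQLFit, glmQLFTest) was fitted to all libraries with 30 group means, and differences between responses were contrasts of contrasts. Benjamini-Hochberg adjustment ran over all genes of a comparison. CPM use library sizes scaled by TMM, and an SE is that of a log2 fold change. An exact permutation test of 3 against 3 cannot give a two-sided p below 0.1 and was not used.

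The lists and the members were chosen with earlier results of these data known. The rule that defined the members used only line, temperature and light treatment. Named genes are the 5 phytochrome genes, the DEGs with non-overlapping libraries of smallest p (up to 12 that rose and 12 that fell), DEGs of the lists, and up to 4 in each direction for each difference. Any other gene was named after its values were seen. Alternatives were DESeq2 1.42.0, quantile-normalized log2 CPM with limma 3.58.1, other filters (25658 and 16474 genes), only the groups compared, a replicate block, left-out replicates and no fold threshold. The main fit, DESeq2, limma and the replicate block were first tested on simulated data. These data had the same spread for every gene and changes only in well-counted genes, so that they do not test genes at low counts. Gene positions and product names are from RefSeq, TAIR10.1.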

Additional observations from a re-analysis of the deposited data

Results flagged for a closer look

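Results were taken up here where the response of the line with both transgenes differed from that of another group by a test of the difference itself (edgeR, adjusted over all genes). Every group has 3 libraries, too few for the test of single outlying libraries.

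The response differed from that of PHYB-CFP/abcde for 67 genes. Those with the smallest p that were higher were GSTF8 (1.78), NFXL1 (1.25), ATHSP22.0 (3.95) and AT1G59860 (3.97), as differences of log2 fold changes. AT3G42800 (-1.73) and AT4G21820 (-2.30), both at low levels, were lower. No gene was called as lower with the replicate block or without any one replicate number. It differed from that of PHYD-YFP/abcde for 252 genes, led by SPA1 (1.92), BBX24 (1.47), TZP (1.68) and SIG5 (2.98), and by GAI (-1.34), PIL1 (-2.68), AT5G44260 (-1.66) and AT5G05965 (-2.36). It differed from that of the same line at 17 °C for 210 genes, led by GSTF8 (2.65), GAPC1 (1.43), GPX6 (1.80) and HSP81-2 (1.67), and by GAI (-1.03), PKS1 (-1.20), AT1G49500 (-1.12) and BT2 (-1.35).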

How the results depend on the processing

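Of 92 named DEGs, 71 kept their call under every alternative that was run and 21 lost it under at least 1, and no named DEG changed direction. Fitted to only the groups compared, the differences from PHYB-CFP/abcde, PHYD-YFP/abcde and 17 °C gave 125, 381 and 316 genes. Without the fold threshold the response had 1718 genes, the difference from PHYD-YFP/abcde 397 and the change between 1 h and 24 h 4915. Leaving out a replicate number or 1 library gave 523 to 752 DEGs of the response, 12 to 66 genes for the difference from PHYB-CFP/abcde, 92 to 269 for PHYD-YFP/abcde, 93 to 219 for 17 °C and 1562 to 1997 between 24 h and 1 h. The cause was not tested, beyond the smaller number of libraries. The leave-outs of single libraries of PHYB-CFP/abcde and of 24 h R, and those of the line with both transgenes for the differences, were chosen after seeing the data. With the replicate block the counts were 739, 70, 253, 204 and 1886, and no named DEG lost its call. The correlations of deviations between same-numbered dark and irradiated libraries were -0.0300 to 0.0187. With so few libraries they cannot show whether a culture or batch was shared. Of the named genes, 12 held a PBE-box and 16 a G-box, some of them both, and 23 held either. Genes under about 1 CPM rest on few counts.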
